A study of Mus musculus with 10 samples.

Results

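RelA, the p65 subunit of NF-κB, was mapped by chromatin immunoprecipitation and sequencing (ChIP-seq) in mouse macrophages, and the regions described here are those it occupied early after lipopolysaccharide (LPS) where the glucocorticoid receptor (GR) was also strongly enriched. A region was included when it stood in the authors' RelA list for 3 h of LPS without dexamethasone (Dex), overlapped by 1 bp or more no region of the RelA list for 8 h of LPS without Dex, overlapped a GR region of cells given LPS and Dex whose highest tag density was 10 or more (called dense GR below), and overlapped no region of the input DNA list. The members were thus chosen by their calls in the RelA lists and by their GR density with LPS and Dex. This left 1664 of the 4972 RelA 3 h regions outside input, or 33.5%, out of 115077 regions in all 10 lists. They made up 48.7% of the 3416 regions called at 3 h and not at 8 h, and covered 861102 bp. Over all 4972, 31.3% met an 8 h region and 61.0% met dense GR of LPS and Dex, values that the choice itself used. All positions are on mouse build mm9, as deposited.

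The cells were bone marrow derived macrophages of C57BL/6J mice, a primary cell grown out of marrow. RelA was precipitated after 3 h and after 8 h of LPS without Dex, at 0, 3 and 8 h of LPS with Dex given 3 h beforehand, at 8 h of LPS with Dex given late at an hour the labels do not state, and at 0 h without either agent. GR was precipitated with LPS and Dex and with Dex alone, after dual cross-linking and with no times in the labels, and the input DNA came from untreated cells. The deposited names of some lists, among them those of 0 h and of late Dex, carry times other than those in the labels; groups here follow the labels, and which is right was not tested. Each condition had 1 library, so no test between conditions was possible, and the values below are counts, shares and densities of these libraries. The lists hold no expression values, so the identity of the cells was not checked. Read depths are not given in the sources used here.

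LPS acts through Toll-like receptor 4 and releases NF-κB from its IκB inhibitors, so that RelA enters the nucleus and binds at promoters and enhancers of inflammatory genes. Part of that binding is short-lived, because NF-κB induces its own inhibitors. Dex is a synthetic glucocorticoid that brings GR into the nucleus. GR can bind its own DNA elements or sit on chromatin through other proteins such as NF-κB subunits, and it is known for restraining inflammatory transcription in macrophages.

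Membership rests on calls in single lists, and 3 measurements bear on the word transient. The 8 h list began at a score of 10.9 and the 3 h list at 8.88, where the score is the authors' z-score per region. Of the 1664 regions, 581 (34.9%, Wilson 95% interval 32.7 to 37.2) had a 3 h score below the lowest score of the 8 h list. The same held for 113 of the 1371 regions that met both dense GR and an 8 h region (8.24%, 6.90 to 9.82), called sustained regions below. Among other regions called at 3 h and not at 8 h the share was higher. It was 50.2% (47.8 to 52.5) of the 1712 that met no GR of LPS and Dex, and 42.5% (28.5 to 57.8) of the 40 that met such GR below a density of 10. With a score of 11 or more required in both RelA lists, 1075 regions met the rule. An 8 h region lay within 1000 bp of 45 of the 1664 (2.70%) without touching them. Finally, 12 were called at 8 h of LPS in the library with late Dex. The regions are called 3 h-only here in that sense alone: listed at 3 h and not at 8 h in the libraries without Dex. Wilson intervals throughout cover counting error of regions alone, not the variation between cultures.

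The choice of regions used their calls in the RelA lists and their GR density with LPS and Dex, so the following levels from those libraries are a description. RelA 3 h density, the highest tag density of a region on the authors' scale, ran over the 3 h-only regions from 0.815 through a median of 17.8 (quartiles 14.6 and 22.1) to 70.9. In sustained regions it ran from 5.71 through 28.0 (20.4 and 39.6) to 171. The 3 h-only regions were thus mostly of moderate RelA density, and 10 of them reached 50. They were also narrower, with a median width of 500.5 bp against 709 bp in sustained regions. GR density with LPS and Dex ran from 10.0 through 29.5 (20.0 and 51.1) to 461 in 3 h-only regions, and its median was 37.1 (24.3 and 59.6) in sustained regions. The ranges of both factors overlapped widely between the classes.

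At the bound of 10 the 3 members just inside had GR densities of 10.0, 10.0 and 10.1, at chr10:121033865-121034198, chrX:13232231-13232515 and chr11:85706546-85706950. Just outside were densities of 9.68, 9.57 and 9.50, at chr3:132454169-132454687, chr10:80591594-80592471 and chr10:121051106-121051357. The bound separates few regions. Only 40 regions called at 3 h and not at 8 h met GR of LPS and Dex below 10, and 1712 met none.

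The 10 highest RelA densities among the 3 h-only regions lay between 50.0 and 70.9. The highest, at chr1:80599448-80600287, had a RelA density of 70.9, and GR densities of 326 with LPS and Dex and 65.7 with Dex alone. Next came chr12:8393101-8394178, with a RelA density of 63.9 and a GR density of 30.6 with LPS and Dex. It was not in the GR list of Dex alone. At chr13:42469351-42470251, RelA density was 61.6, and GR density was 245 with LPS and Dex and 29.3 with Dex alone. At these regions GR density with LPS and Dex ran from 30.6 to 326, while RelA was read without Dex.

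The others of the 10 were at chr5:118874369-118875397 (RelA density 58.8), chr11:83345344-83346185 (57.8), chr2:11445281-11446123 (57.1), chr10:17237965-17238957 (54.0), chr8:96695044-96695956 (52.4), chr4:104941023-104941924 (50.4) and chr2:75558416-75559323 (50.0). The region of chromosome 4 had the lowest GR density of the 10, at 13.7 with LPS and Dex. An 8 h region lay close to 2 of them, 200 bp from chr2:11445281-11446123 and 892 bp from chr11:83345344-83346185. Of the 10, 4 were also listed for GR with Dex alone. That share was 31.6% over all 1664, and 36.1% of the 404 with a RelA density of 22.4 or more.

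The 10 highest GR densities ran from 278 to 461 with LPS and Dex, and all 10 were listed for GR with Dex alone as well. That is near the share at high GR density in general. Of the 135 3 h-only regions with a GR density of 100 or more, 120 were listed there (88.9%). Among GR regions of 80 or more without RelA the share was 86.0%. The highest was at chr16:52094592-52095330, where GR density was 461 with LPS and Dex and 147 with Dex alone, and RelA density at 3 h was 35.9. At chr12:86873243-86874181, GR density was 355 with LPS and Dex and 141 with Dex alone. At chr4:61940975-61941628, it was 350.3 with LPS and Dex and 29.8 with Dex alone. With Dex alone the last region was far less dense than the other two, although with both agents it nearly equalled the second.

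The remainder were at chr3:146320101-146320971 (345 with LPS and Dex, 106 with Dex alone), chr1:194589009-194589772 (327 and 146, in that order), the chromosome 1 region with the highest RelA density, chr7:117260401-117260870 (323 and 115), chr19:21673091-21673873 (316 and 59.0), chr7:71041594-71042279 (290.0 and 139) and chr7:27951939-27952644 (278 and 108). RelA density at 3 h in these 10 regions ran from 19.0 to 70.9. By GR with Dex alone, the 5 highest were at chr16:52094592-52095330, chr1:194589009-194589772, chr12:86873243-86874181, chr7:71041594-71042279 and chr7:107111335-107111888, with 147, 146, 141, 139 and 122. Over all 1664 regions, the Spearman correlation of RelA and GR density was 0.21, a description only, in which all points share 1 RelA and 1 GR library. RelA density and width correlated at 0.77.

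**Figure D1:**
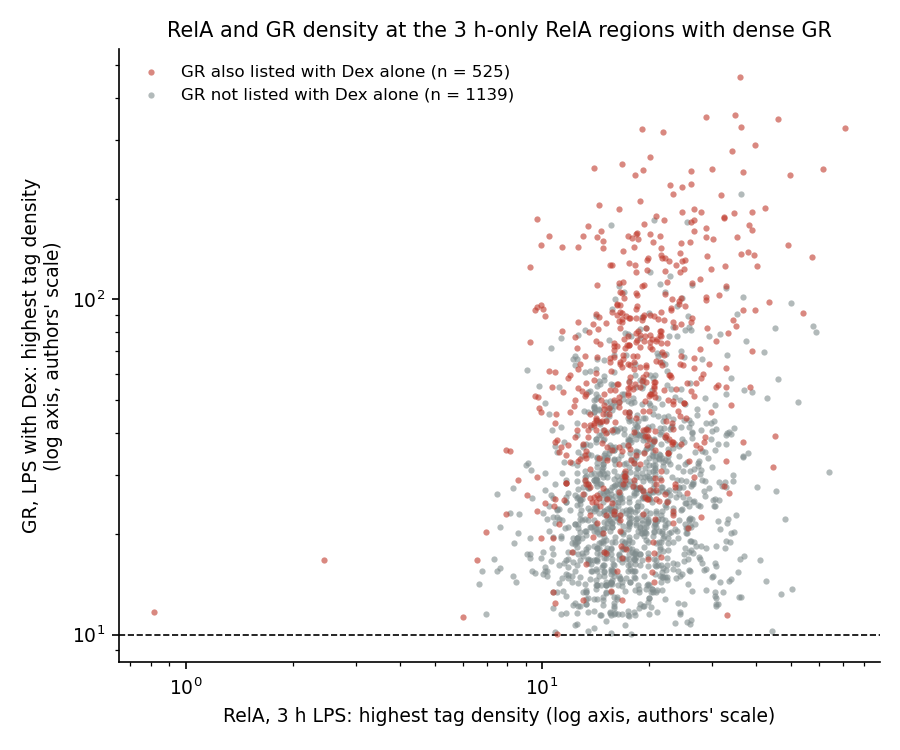
Highest RelA tag density at 3 h of LPS (horizontal, log axis) against highest GR tag density with LPS and Dex (vertical, log axis) for the 1664 3 h-only regions, 1 point each; red points (525) were also listed for GR with Dex alone, grey points (1139) were not, and the dashed line is the bound of 10. Red points lie mostly in the upper part of the cloud, with medians of 58.3 in red and 24.2 in grey on the vertical axis.

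Whether GR occupied the same places without LPS was read from the GR list of Dex alone, which had no part in the choice of regions. Of the 1664 3 h-only regions, 525 met a GR region there (31.6%, 29.4 to 33.8). Among the sustained regions 323 of 1371 did (23.6%, 21.4 to 25.9), and among the 1712 regions of 3 h only that met no GR with both agents, 14 did (0.818%, 0.488 to 1.37). Over all 4972 RelA 3 h regions outside input the background was 17.5%, which includes the regions without GR. Those regions were chosen for meeting no GR with both agents, and the 3 h-only and sustained regions for meeting dense GR. The contrast with the regions without GR and with the background thus follows in part from the choice and is a description. Nearly all of this GR was dense: 497 of the 3 h-only regions met GR of Dex alone with a density of 10 or more (29.9%, 27.7 to 32.1), against 309 sustained regions (22.5%, 20.4 to 24.8) and a background of 16.3%. With a bound of 20 for both GR lists, which also changes the regions chosen, the share with dense GR of Dex alone was 19.0%. The other 1139 3 h-only regions, most of the class, were listed for GR when LPS was given with Dex and not with Dex alone. Most dense GR regions of LPS and Dex shared this: of all 16366 outside input, 21.8% were listed with Dex alone. The list of Dex alone held 55196 regions, of which 4018 reached a density of 10, against 16612 of 51639 with LPS and Dex. A bound of 10 may thus not mean the same in both lists.

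The 3 h-only regions exceeded the sustained regions by 7.99 percentage points (95% interval by Newcombe's method 4.80 to 11.1, counting error of regions). They did so on 17 of 20 chromosomes, where the share ran from 21.3 to 38.8% in 3 h-only regions and from 8.00 to 34.3% in sustained regions. Among regions with a 3 h score of 10.9 or more, the shares were 32.5% of 1083 3 h-only regions and 24.2% of 1258 sustained regions, a difference of 8.26 points (4.60 to 11.9). No replicate shows how far a second GR library would move these shares.

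**Figure D2:**
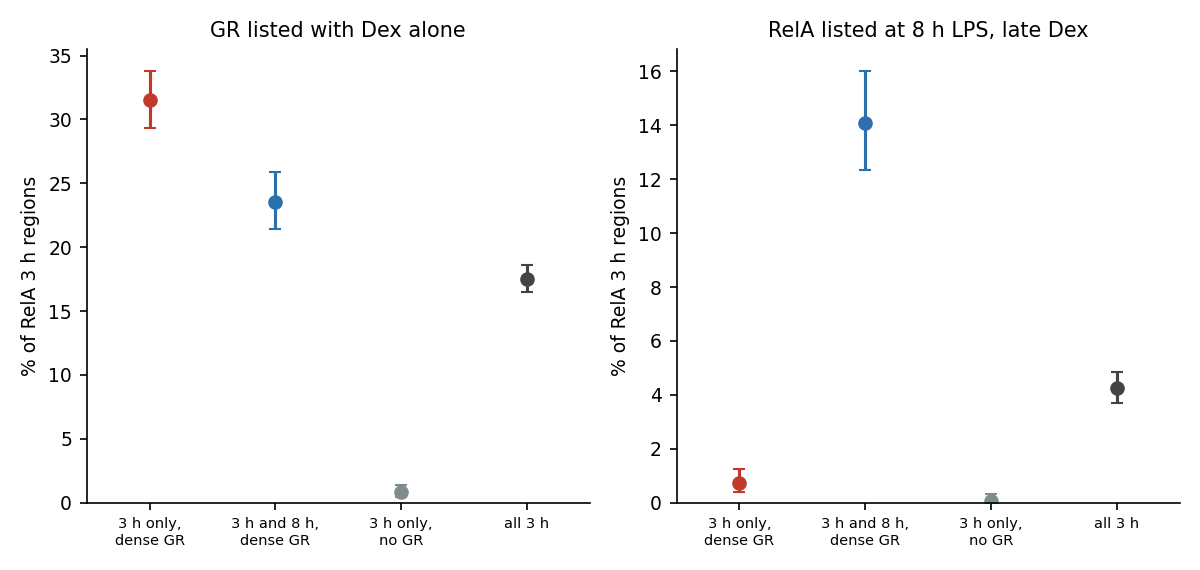
Share of RelA 3 h regions met by a GR region of Dex alone (left, percent) and by a RelA region of 8 h LPS with late Dex (right, percent), by class of region, with Wilson 95% intervals as bars. The 3 h-only regions with dense GR stand highest on the left, at 31.6% against 23.6% of sustained regions, and low on the right, at 0.721% against 14.1%.

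Since sustained regions were denser in both factors, the comparison was repeated within terciles of each factor in turn. The other factor was left free, so the classes were matched only roughly. The highest tercile of RelA density reached 70.9 in 3 h-only regions and 171 in sustained regions. By terciles of RelA 3 h density (bounds 15.9 and 22.4), GR of Dex alone met 27.2%, 32.6% and 36.1% of 3 h-only regions in the lowest, middle and highest tercile. The corresponding shares of sustained regions were 16.5%, 20.4% and 25.6%. The differences were 10.7 points (2.66 to 17.2), 12.1 points (6.23 to 17.6) and 10.5 points (5.13 to 16.0). The 3 h-only regions were higher in each tercile, and by more than in the pooled comparison.

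Terciles of GR density with LPS and Dex (bounds 25.1 and 45.6) gave 8.64%, 25.2% and 69.1% of 3 h-only regions, against 2.75%, 12.9% and 47.5% of sustained regions. The differences were 5.89 (2.93 to 8.61), 12.3 (7.50 to 17.0) and 21.5 points (15.5 to 27.3). By quintiles of GR density within the 3 h-only regions, from the lowest to the highest, the share listed with Dex alone was 6.80%, 12.01%, 20.2%, 41.0% and 78.0%. Each list ends at a lowest score, and the part of that limit in these gradients was not tested.

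**Figure D3:**
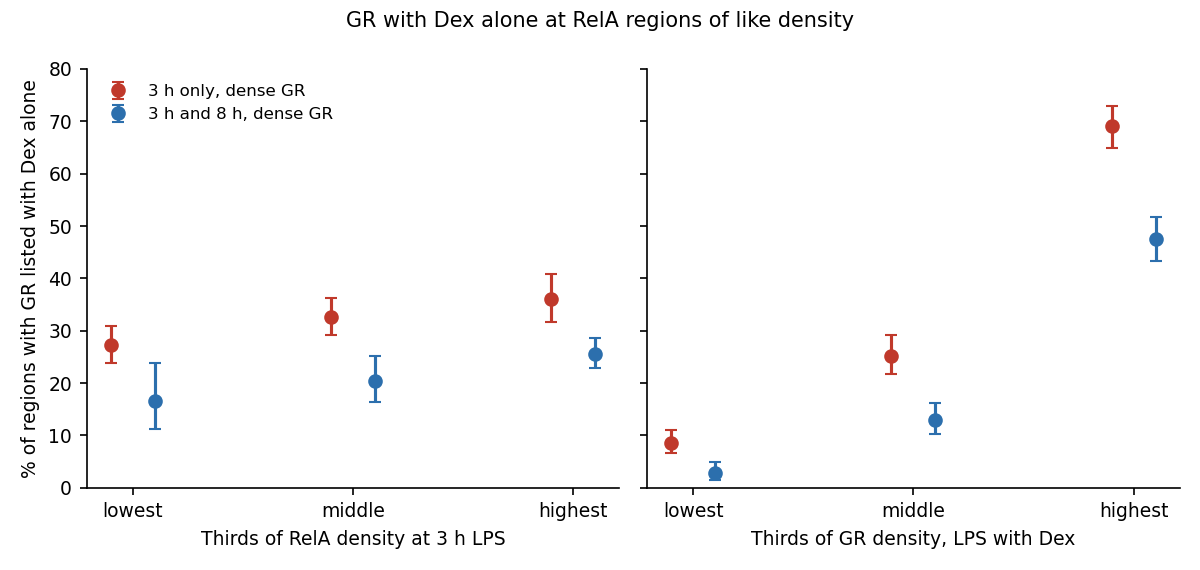
Share of regions (percent, vertical) met by GR of Dex alone in terciles of RelA 3 h density (left) and of GR density with LPS and Dex (right), for 3 h-only (red) and sustained (blue) regions with dense GR, with Wilson 95% intervals. Red lies above blue in all 6 pairs, from 8.64% against 2.75% to 69.1% against 47.5% on the right.

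The same contrast was viewed from the GR side, over the 16366 dense GR regions of LPS and Dex outside input. Of these, 1667 met a 3 h-only region, 1394 a sustained region, and 13099 no RelA region of 3 h or 8 h. Their median GR densities were 29.2, 36.9 and 19.9. In all, 31.9% (29.7 to 34.2) of the GR regions at 3 h-only RelA were listed with Dex alone, against 23.2% (21.1 to 25.5) at sustained RelA and 20.5% (19.8 to 21.2) without RelA.

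At like GR density the GR regions at 3 h-only RelA stood near those without RelA, and those at sustained RelA stood lower. Between densities of 20 and 40, 19.9% (17.1 to 23.1) of 668 GR regions at 3 h-only RelA were listed with Dex alone, against 8.87% (6.76 to 11.6) of 541 at sustained RelA and 19.6% (18.5 to 20.8) of 4925 without RelA. Between 40 and 80 the shares were 52.3% (47.2 to 57.4) of 365, 31.8% (27.6 to 36.2) of 450 and 52.9% (50.2 to 55.5) of 1313, in the same order. At 80 and above they were 85.6% (80.2 to 89.8) of 209, 71.2% (64.1 to 77.4) of 177 and 86.0% (81.7 to 89.5) of 308. Between 10 and 20 the GR regions at 3 h-only RelA did not keep level with those without RelA: the shares were 6.82% (4.79 to 9.63) of 425, 3.10% (1.51 to 6.25) of 226 and 11.6% (10.9 to 12.4) of 6553. Seen from the list of Dex alone, 497 of its 3733 dense regions outside input met a 3 h-only region, or 13.3%, and 311 a sustained region, or 8.33%.

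**Figure D4:**
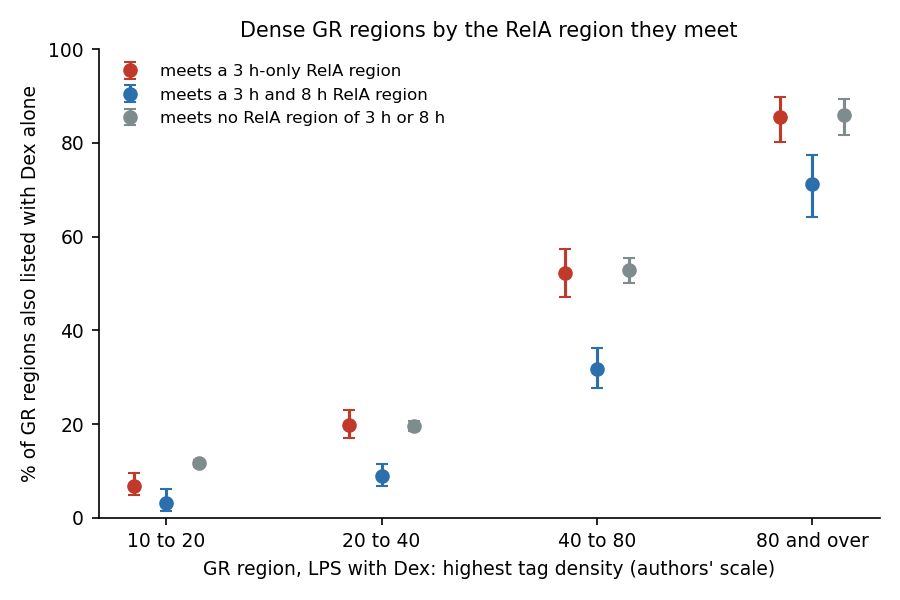
Share of dense GR regions of LPS and Dex (percent, vertical) that were also listed with Dex alone, in 4 ranges of GR density (horizontal), for GR regions that met a 3 h-only RelA region (red), a sustained RelA region (blue) or no RelA region (grey), with Wilson 95% intervals. Red and grey lie together from a density of 20 upward (19.9% and 19.6%, 52.3% and 52.9%, 85.6% and 86.0%), and blue lies below both in every range.

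Where GR was listed in both libraries, its density was mostly higher with LPS. At the 525 3 h-only regions the median was 58.3 with LPS and Dex and 18.5 with Dex alone, and 512 of them (97.5%, 95.8 to 98.5) had the higher density with LPS and Dex. The background over the 856 RelA 3 h regions listed in both was 98.0%, so this count is not a result about the 3 h-only regions. The median log2 ratio of LPS with Dex over Dex was 1.45 (quartiles 1.03 and 1.90) at 3 h-only regions and 1.84 (1.44 and 2.25) at the 323 sustained regions. At dense GR regions without RelA it was 0.98 (0.28 and 1.54; 2689 regions). The choice of regions put a floor of 10 under the density with both agents, the scaling between the libraries is not stated, and regions not listed with Dex alone are left out, so these ratios describe the listed pairs only.

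The ratios are also given by range of GR density with LPS and Dex, as a description, since that density sets both the range and the numerator. Between 20 and 40 the median log2 ratio was 1.09 at 3 h-only RelA (133 GR regions), 1.33 at sustained RelA (48) and 0.96 without RelA (967). Between 40 and 80 it was 1.62 (191), 1.82 (143) and 1.52 (694), and at 80 and above 1.70 (179), 2.13 (126) and 1.65 (265), in the same order. Between 10 and 20 only 29 and 7 GR regions at 3 h-only and sustained RelA were listed with Dex alone. The largest ratio at a 3 h-only region was 3.56, at chr4:61940975-61941628. Over the 525 regions the GR densities of the 2 libraries correlated at a Spearman value of 0.74, and RelA density correlated with GR density of Dex alone at 0.26, both as descriptions.

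GR sat near the middle of most 3 h-only regions. The centres of the RelA region and its nearest overlapping dense GR region were a median of 60 bp apart (quartiles 27.0 and 110), against 45.5 bp (20.5 and 85.2) in sustained regions. The distance was 100 bp or less in 1171 of the 1664 (70.4%) and over 250 bp in 104. The median 3 h-only region was covered by GR over 100% of its length, 1651 met a single dense GR region, and 13 met 2 or more. The 3 h-only regions with and without GR of Dex alone had median distances of 52.5 bp (24.0 and 104) and 62.5 bp (30.0 and 112). In the 759 3 h-only regions in the upper part (50%) of 3 h RelA densities the median was 49.5 bp. The classes were not matched for RelA density or width in these distances. Overlap was a condition of membership, and it bounds this distance.

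**Figure D5:**
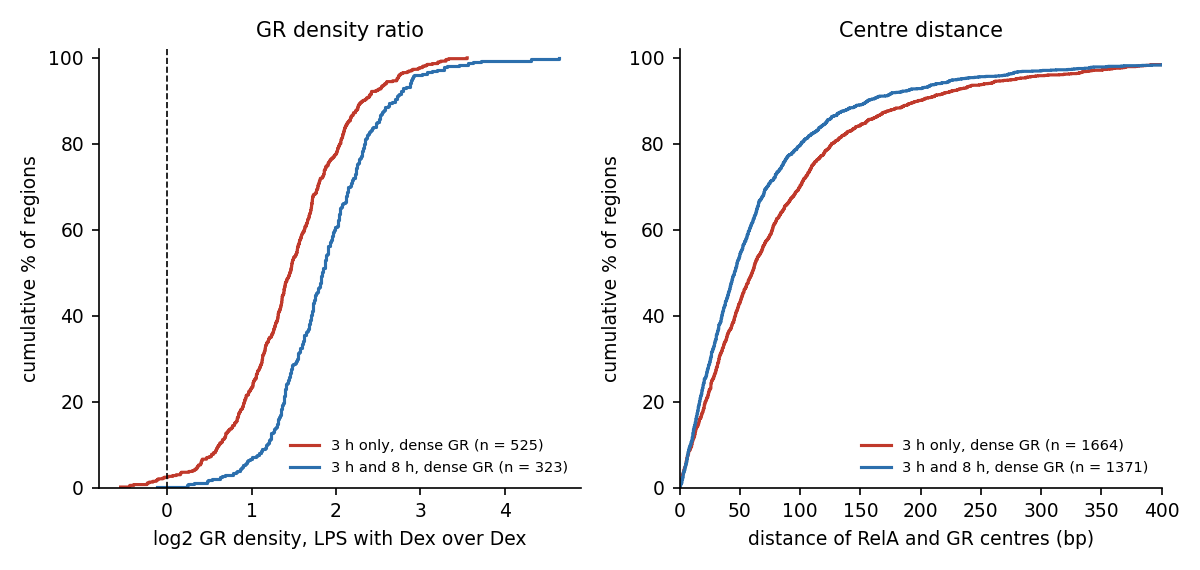
Cumulative share of regions (percent) by log2 ratio of GR density, LPS with Dex over Dex (left), and by distance of RelA and GR centres in bp (right), for 3 h-only (red) and sustained (blue) regions with dense GR. The red curve lies to the left of the blue one in the left panel (medians 1.45 and 1.84) and to its right in the right panel (medians 60 and 45.5 bp); distances over 400 bp are beyond the axis.

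RelA after Dex was read from the libraries that played no part in the choice. With late Dex, RelA was listed at 12 of the 1664 3 h-only regions (0.721%, 0.413 to 1.26), against 193 of the 1371 sustained regions (14.1%, 12.3 to 16.0) and a background of 4.24%. Among the 1712 regions of 3 h only that met no GR, 1 was listed (0.0584%, 0.0103 to 0.330). By terciles of RelA 3 h density (bounds 15.9 and 22.4), the shares were 0.170% of 588 3 h-only regions and 2.26% of 133 sustained regions in the lowest, 0.446% of 672 and 0.958% of 313 in the middle, and 1.98% of 404 and 20.2% of 925 in the highest. The difference was -2.09 points (-6.25 to -0.404), -0.512 points (-2.36 to 0.553, an interval that holds 0) and -18.2 points (-21.1 to -15.1), so most of the pooled contrast lay at the highest RelA densities. Sustained regions were chosen for being listed at 8 h, the time at which late Dex was read, so this measure is not wholly separate from that choice. The 12 account for 12 of the 23 late Dex regions outside input that had no counterpart at 8 h without Dex. The 3 h-only regions were chosen for meeting no 8 h region, so this count follows in part from the choice and is a description.

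At these 12 regions the late Dex density ran from 15.6 through a median of 19.7 to 28.9, and that at 3 h without Dex from 13.2 through 36.8 to 70.9. The scaling between these RelA libraries is not stated, and other regions listed in both were not compared. The densities are thus a description of these 12 regions alone. Late Dex was the lower in 10 of them. The first had 24.5 with late Dex and 70.9 at 3 h (chr1:80599448-80600287), and the next 28.2 and 61.6 (chr13:42469351-42470251). Further regions were at chr4:132519233-132520192 (19.6 with late Dex and 49.6 at 3 h), chr3:146320101-146320971 (19.1 and 45.9), chr18:62326360-62327064 (28.9 and 42.8) and chr18:39861717-39862441 (22.1 and 32.9), chr6:91692802-91693529 (15.6 and 37.4), chr11:86409605-86410216 (19.7 and 36.3), chr8:97335655-97336234 (15.7 and 22.0) and chr4:63381320-63381884 (18.5 and 21.6). The late Dex density exceeded that of 3 h at chr8:130767991-130768571 (23.3 and 20.0) and chr13:60978596-60978959 (16.9 and 13.2).

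GR density with LPS and Dex at the 12 ran from 22.8 through a median of 140.4 to 345, against a median of 29.5 over all 1664. Of the 12, 5 were listed for GR with Dex alone. That share was 31.6% over all 1664, and 88.9% of the 135 with a GR density of 100 or more. The late Dex list began at a score of 9.85, below the 10.9 of the 8 h list. At 4 of the 12 the late Dex score was under 10.9, and at 8 it was above, up to 20.1 at chr13:42469351-42470251. An 8 h region of the library without Dex began 1256 bp from that region.

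Before LPS and after Dex pretreatment, the 3 h-only regions were nearly absent from the RelA lists. With Dex pretreatment at 0 h and at 3 h of LPS, 0 of 1664 were listed (Wilson upper bound 0.230% each), against backgrounds of 0.603% and 0.241%. With pretreatment and 8 h of LPS 1 was listed, against a background of 0.0805%, and at 0 h without Dex 1 was listed, against 0.744%. Sustained regions were listed with any pretreatment at 35 of 1371 (2.55%, 1.84 to 3.53) and at 0 h at 35 of 1371, over backgrounds of 0.764% and 0.744%. The 1712 regions of 3 h only without GR were in none of these 4 lists (0 of 1712 in each, Wilson upper bound 0.224%), so near absence was common to both classes of 3 h only. The lists held 75, 84, 78 and 83 regions, of which 43, 33, 15 and 47 lay outside input, far fewer than the 1664 regions asked about. Such short lists could meet only a small part of the 1664, so the low shares were set in part by list length. The region listed at 0 h was chr7:31895869-31896507, with a RelA density of 34.0 at 3 h and 14.5 at 0 h. The region listed with pretreatment and 8 h of LPS was chrX:93016356-93016607, with a RelA density of 7.45 there and 0.815 at 3 h without Dex, the lowest 3 h density of all 1664.

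Along the chromosomes the 3 h-only regions were mostly single. Another RelA 3 h region lay within 10 kb of 552 of them (33.2%, 31.0 to 35.5), against 561 sustained regions (40.9%, 38.3 to 43.5) and a background of 34.6%, so a share near the background is all that was seen. A sustained region lay within 10 kb of 205 (12.3%, against a background of 14.5%) and another 3 h-only region with dense GR within 10 kb of 268 (16.1%, against 14.4%), both near the shares over all RelA 3 h regions. Chaining the 3 h-only regions over gaps of up to 10 kb left 1396 alone, 108 pairs and 17 runs of 3 or more.

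The longest run held 4 regions in 4492 bp, at chr2:130912583-130917075. Its RelA densities ran from 11.7 to 19.3 and its GR densities with LPS and Dex from 24.9 to 28.9, and none of the 4 was listed for GR with Dex alone. The run of 3 at chr12:86854423-86874181 held the second highest GR density, RelA densities from 34.8 to 38.4 and GR of Dex alone at 2 of 3. In the run at chr7:71041594-71056455, where GR densities with LPS and Dex ran from 38.3 to 290.0, all 3 were listed for GR with Dex alone. The share listed was 31.6% over all 1664, and ran from 6.80% in the lowest quintile of GR density to 78.0% in the highest. The counts in these runs are thus a description. The next runs were at chr17:8061745-8078137 and chr1:166004614-166018543, with 1 of 3 listed in each. No RelA region of 8 h lay between the members of any of these 5 runs.

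By chromosome, 3 h-only regions with dense GR made up between 24.6% (19.3 to 30.9) of the 207 RelA 3 h regions of chromosome 16 and 39.9% (33.6 to 46.6) of the 213 of chromosome 8, apart from the single RelA region of chromosome Y. Chromosome 2 held the most, 144. The share listed for GR with Dex alone was lowest on chromosome 10, at 21.3% of 108, and highest on chromosome 19, at 38.8% of 49.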

How the data were processed

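ChIP-seq was done for RelA in 7 libraries and for GR in 2, with 1 input library, each a sample of its own condition. The submitters' processing notes name CASAVA and the build mm9. The region caller, the threshold it used and any subtraction of input are not given in the sources used here. Each list gives the highest and mean tag density, which are signal values on a scale the authors do not state, per the file headers. Each region also carries a z-score (the score), named so per the file headers. The deposited p-values were not used in any comparison. Per the labels' protocols, all ChIP cells were fixed with 1% formaldehyde for 10 min, GR cells after 2 mM disuccinimidyl glutarate for 30 min, chromatin was sheared to 400 to 500 bp, and 51 nt single-end reads were made.

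Overlaps of at least 1 bp, shares with Wilson 95% intervals, differences with Newcombe intervals, and distances were computed with Python 3.11.15, numpy 2.4.6 and pandas 2.3.3, and the procedure was checked on simulated lists. The regions and settings were chosen with earlier results of these data known. Named regions were the 10 highest by RelA and by GR with LPS and Dex, the 5 highest by GR with Dex, those met by another RelA library, the 5 longest runs and those beside the bound of 10. The ranges of GR density were set after the data had been seen. Gene and promoter tables of another build (GRCm38.p6) were not used, so no gene or sequence is given.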

Additional observations from a re-analysis of the deposited data

How the results depend on the processing

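The 10 results were recomputed under those of 17 alternative settings that apply to each, which gave 98 values, and 69 of them stayed within the 95% interval of the value reported (or, for the number of regions, within 1.5 times). The excess over sustained regions and the median log2 ratio stayed positive. Counts, shares and distances cannot turn negative, so no change of direction was possible for them. The other 29 values are given here, and beyond the change of regions that each setting makes by construction, the cause was not tested. The number of regions was 1075 with a score of at least 11 in both RelA lists and 759 in the upper part (50%) of 3 h densities. The share met by GR with Dex was 27.5% with an overlap of 50% of both regions, 39.8% with a GR bound of 20 and 34.7% in the upper part; for dense GR with Dex it was 26.7%, 19.0% (with the bound of 20 in both GR lists) and 33.9%. The excess over sustained regions was 12.5 points with a bound of 20, 12.1 in the middle tercile of RelA density, and 12.3 and 21.5 in the middle and highest terciles of GR density, a split added after seeing the data. RelA with late Dex met 1.45% in the upper part. RelA at 0 h met 0% with 50% overlap. RelA with pretreatment met 0% with 50% overlap, centres within 250 bp, a GR bound of 20, a score of 11 or the upper part, and 0.537% with input regions kept. The centre distance was 50 bp with 50% overlap, 55.5 bp with centres within 250 bp or a score of 11, 49.5 bp in the upper part and 63.5 bp with regions within 500 bp merged. Neighbours within 10 kb were found for 28.8% with a score of 11, 29.9% in the upper part and 30.2% after merging, and within 50 kb for 59.5%. No paired analysis was possible because each condition had 1 library. Fewer reads and lower binding cannot be told apart at regions not listed at 8 h or with Dex alone.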

Other observations

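At 13 of the 525 regions listed in both GR libraries the density was lower with LPS and Dex than with Dex alone, with log2 ratios from -0.55 to -0.03. Their RelA density at 3 h had a median of 16.2. Chromosome X held 2 of the 13, and 12 of all 525. The lowest ratio was at chrX:93016356-93016607, where GR density was 11.7 with LPS and Dex and 17.2 with Dex alone. The region has the least width in the list, 251 bp, and is also the one with the lowest RelA density. Only 2 of the 1664 regions had a RelA 3 h density below 5.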
